A study of Rattus norvegicus with 9 samples.

Results

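The 10 genes described here encode ligands of the epidermal growth factor (EGF) family (Egf, Tgfa, Areg, Ereg, Hbegf, Btc and Nrg1) and receptors of the ErbB family (Egfr, Erbb2 and Erbb3). They were chosen by gene name, with no measured value in the rule, but earlier results of these data were known at the time. Probes were assigned to them by their RefSeq accessions. In total, 14 of 30356 probes on the rat arrays belonged to these genes, and the 10 genes were among 15163 genes that could be named.

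EGF family ligands are made as membrane-anchored precursors, are released by metalloproteases such as ADAM17, and bind to ErbB receptor tyrosine kinases on the same or a neighbouring cell. EGF, TGF-alpha and amphiregulin bind the EGF receptor, HB-EGF, betacellulin and epiregulin bind the EGF receptor and ErbB4, and neuregulin 1 binds ErbB3 and ErbB4, while ErbB2 has no known ligand and serves as the preferred partner of the other receptors. Active receptor pairs signal through RAS-MAPK, PI3K-AKT and STAT proteins, and in the prostate the system is known for growth of epithelial and stromal cells.

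Expression was compared between prostates of 3 groups of male Sprague Dawley rats that were 6 weeks old at the start, with 3 arrays per group. Sham rats had a sham operation and received solvent. BPH rats were castrated and received dihydrotestosterone (3 mg/kg daily for 4 weeks) together with the vehicle of ghrelin, and BPH+ghrelin rats were castrated, received dihydrotestosterone in the same way, and were given ghrelin by mouth in the last 2 weeks (20 nmol/kg daily). Castration and dihydrotestosterone were thus common to both BPH groups, so that an effect of one cannot be told apart from an effect of the other. Dose, route and duration of ghrelin follow the methods of the study, and its legends differ from them. A table legend places the harvest 4 weeks after ghrelin began, and a figure legend gives an intraperitoneal route. Labels name the tissue only as prostate, without the lobe. The study describes the arrays of a group as prostates of separate animals, but the labels do not tie an array to an animal, and p-values measure the spread between these samples, which may in part be technical. Being whole tissue, the samples cannot show whether a lower level reflects fewer cells of a type or less RNA per cell.

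Sham replicate 2 was the dimmest array. It had 61.4% of its probes well above background, where the range of the remaining arrays was 69.5% to 75.05%, and the 75th percentile of its raw signal was 197, where theirs was 359 to 653. The signal of a certain array fell between those of both fellow arrays of its group at most of 17858 probes that were above background on all arrays (sham replicate 3 at 77.1%, BPH replicate 2 at 74.8% and BPH+ghrelin replicate 2 at 72.4%), while the tests assume independent arrays. Arrays with the same scan time were taken as 1 slide, so that slides are inferred here and below. Slide and group were largely shared. BPH replicates 1 to 3 and BPH+ghrelin replicate 1 were assigned to 1 slide. BPH+ghrelin replicates 2 and 3 and sham replicates 1 and 2 were assigned to another, and sham replicate 3 to the third. Of 8 markers of luminal secretory epithelium, 7 were above background on every array of each group. Pbsn (probasin), a defining secretory protein of the rat prostate, had log2 signals of 16.16, 16.41 and 16.30 in sham, 14.11, 13.72 and 13.11 in BPH, and 14.46, 14.40 and 14.34 in BPH+ghrelin. The list moved both ways: in BPH against sham, 4 of 7 tested luminal markers had a higher and 3 a lower mean, with 1 called higher and 2 called lower in limma (2.16% and 2.18% of all genes). Krt8 (keratin 8) had means of 10.57 in sham and 11.53 in BPH, and Cd24 of 15.91 and 16.64. Folh1 was above background on no sham and no BPH+ghrelin array.

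Promoters from the RefSeq annotation of assembly GRCr8 are shown for 4 genes on which the description below turns: Areg, the one family promoter with matches to each motif searched, Egfr and Erbb2, whose differences depended on the same array, and Stat5a, which showed the largest difference among the pathway genes. Each is the 250 bases before the start of the gene, read 5′ to 3′ on the strand of the gene. Of 15 EGF and ErbB family genes looked up, 12 had an entry. Capitals mark exact matches, searched on both strands, to 4 motifs. The first was TATAAA, the core promoter element bound by TBP. The second was GGGCGG, called the GC box, which appears as its reverse complement when it lies on the opposite strand. The third was TGACGTCA, the cAMP response element, which reads alike on both strands. The fourth was AGAACA, a single recognition element of the androgen and glucocorticoid receptors. None of the matches shown overlap. The Areg promoter (chr14:17265642-17265891, minus strand, 54.4% GC) contains all 4:
Areg: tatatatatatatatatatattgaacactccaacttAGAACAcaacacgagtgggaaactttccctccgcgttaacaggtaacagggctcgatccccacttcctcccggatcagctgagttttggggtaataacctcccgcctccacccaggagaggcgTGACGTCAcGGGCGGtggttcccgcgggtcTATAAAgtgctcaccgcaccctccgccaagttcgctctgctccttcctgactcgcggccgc
In it, the receptor element lies 214, the cAMP response element 91, the GC box 82 and the TATAAA motif 61 bases before the start. The Egfr promoter (chr14:95378376-95378625, plus strand, 63.6% GC) has 1 GC box on the other strand, 51 bases before the start, and no TATAAA:
Egfr: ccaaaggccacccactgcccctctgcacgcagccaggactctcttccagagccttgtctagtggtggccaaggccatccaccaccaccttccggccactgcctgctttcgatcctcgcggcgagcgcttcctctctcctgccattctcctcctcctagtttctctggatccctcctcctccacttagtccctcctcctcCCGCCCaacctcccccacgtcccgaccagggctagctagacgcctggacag
In the Erbb2 promoter (chr10:83907351-83907600, plus strand, 69.2% GC), 1 GC box was found 98 bases before the start:
Erbb2: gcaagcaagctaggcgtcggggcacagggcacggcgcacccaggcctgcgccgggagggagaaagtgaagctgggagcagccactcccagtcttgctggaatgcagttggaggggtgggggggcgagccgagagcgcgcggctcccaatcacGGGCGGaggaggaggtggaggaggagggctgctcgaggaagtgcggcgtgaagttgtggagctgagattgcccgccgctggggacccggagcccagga
The Stat5a promoter (chr10:86285609-86285858, plus strand, 67.6% GC) holds 2 GC boxes, at 250 and 181 bases before the start:
Stat5a: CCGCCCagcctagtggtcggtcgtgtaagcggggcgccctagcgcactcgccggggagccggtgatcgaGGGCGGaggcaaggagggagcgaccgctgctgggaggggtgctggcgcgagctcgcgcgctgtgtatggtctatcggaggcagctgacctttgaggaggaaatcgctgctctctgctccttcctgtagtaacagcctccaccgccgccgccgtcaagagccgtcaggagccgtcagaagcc
Among 33469 rat promoters of this length, TATAAA occurred in 12.9%, GGGCGG in 30.5%, TGACGTCA in 1.59% and AGAACA in 17.5%, and the median GC content was 51.2%. A match describes the sequence and does not show that a factor binds. Areg lies on chromosome 14 in a row of 4 consecutive protein-coding genes, Btc, Areg, Ereg and Epgn, all of them EGF family ligands.

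In BPH against sham, none of the 9 members tested passed an adjusted p of 0.05 (limma with Benjamini-Hochberg adjustment over 19552 genes, with an accession that had no symbol counted as a gene). 6 had a higher and 3 a lower mean in BPH, the median log2 difference was 0.32 (0.04 over all genes), and the largest were those of Erbb3 (0.74) and Btc (0.67). Among all genes, 4.34% passed. Without adjustment, 1 member (Hbegf) had a p under 0.05 in limma, compared to 26.5% of all genes. Hbegf was also the 1 member whose arrays did not overlap between both groups, which was the case in 31.3% of all genes. Its probe was above background on 3 of 3 BPH but only 1 of 3 sham arrays, and was kept through the BPH arrays. Both of these Hbegf results are thus set against signal that was mostly not well above background. No member differed by 2-fold or more on the probe that represents it, as 8.16% of all genes did.

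After ghrelin, again 0 of 9 members passed the adjusted test in BPH+ghrelin against BPH (limma), compared to 1.48% of 19749 genes. The Hbegf probe was above background on 3 BPH arrays but only 1 BPH+ghrelin array, and was again kept through the BPH arrays. Here 4 members were higher and 5 lower in mean, with a median log2 difference of -0.24 (0.02 over all genes). The largest were those of Erbb3 (-0.80), Nrg1 (0.61) and Btc (-0.59). Only Nrg1 had an unadjusted p under 0.05, which 21.1% of all genes had. Arrays of both groups overlapped in each of the 9 members, while they did not in 39.2% of all genes, and no member reached 2-fold (6.11% of all genes).

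Between BPH+ghrelin and sham, 8 members could be tested, as the Hbegf probe was above background on too few arrays. Of these, 0 passed the adjusted test and 0 had an unadjusted p under 0.05 (limma), compared to 6.29% and 23.7% of 19197 genes. The median log2 difference was 0.10 (0.04 over all genes). All arrays overlapped between the groups in the 8 members (no overlap in 30.4% of all genes), and none differed by 2-fold (7.41%). Each pair of the 3 comparisons shares a group of arrays, so they are not independent of each other.

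**Figure D1:**
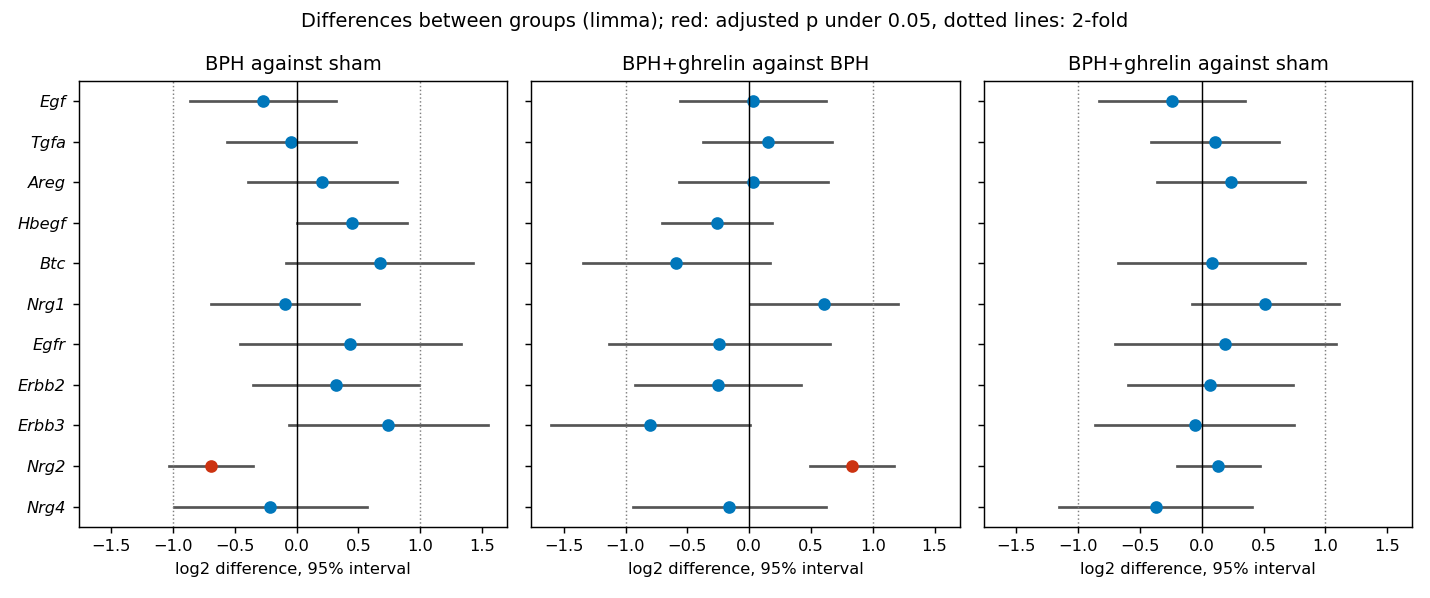
Log2 differences between the groups (points) with 95% confidence intervals (lines) for 9 members and for Nrg2 and Nrg4, with dotted lines at 2-fold. Red marks an adjusted p under 0.05 in limma, which was seen for Nrg2 in 2 comparisons and for no member, and most intervals span 0.

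Egf, the founding ligand of the family and a secretory product of the prostate, was measured with 10 repeated spots per array. Its log2 signal was 8.19, 8.73 and 8.37 in sham, 7.65, 8.18 and 8.65 in BPH, and 8.36, 8.17 and 8.04 in BPH+ghrelin. The 3 groups overlapped, and the lowest and the highest BPH array spanned nearly the whole range of the 9 arrays. Means were 8.43 ± 0.27 (SD, n = 3), 8.16 ± 0.50 and 8.19 ± 0.16. The difference of BPH to sham was -0.27 (95% confidence interval -0.86 to 0.32, adjusted p 0.518 in limma), that of BPH+ghrelin to BPH 0.031 (-0.56 to 0.62, adjusted p 0.959), and that of BPH+ghrelin to sham -0.24 (-0.83 to 0.35, adjusted p 0.625). A second Egf probe gave 0.06 and -0.13 for the first and the second of these differences, so that the probes disagreed in direction.

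The repeated spots of Egf and Areg allow a comparison of the error within an array with the spread between arrays. For Egf, the SD between spots of an array was 0.033 to 0.076 (median 0.046), compared to an SD between arrays of 0.16 (BPH+ghrelin) to 0.50 (BPH). For Areg, it was 0.053 to 0.21 (median 0.074), with the highest value on sham replicate 2, compared to 0.31 to 0.41 between arrays. In both genes, spots of 1 array thus varied less than the arrays of 1 group did.

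**Figure D2:**
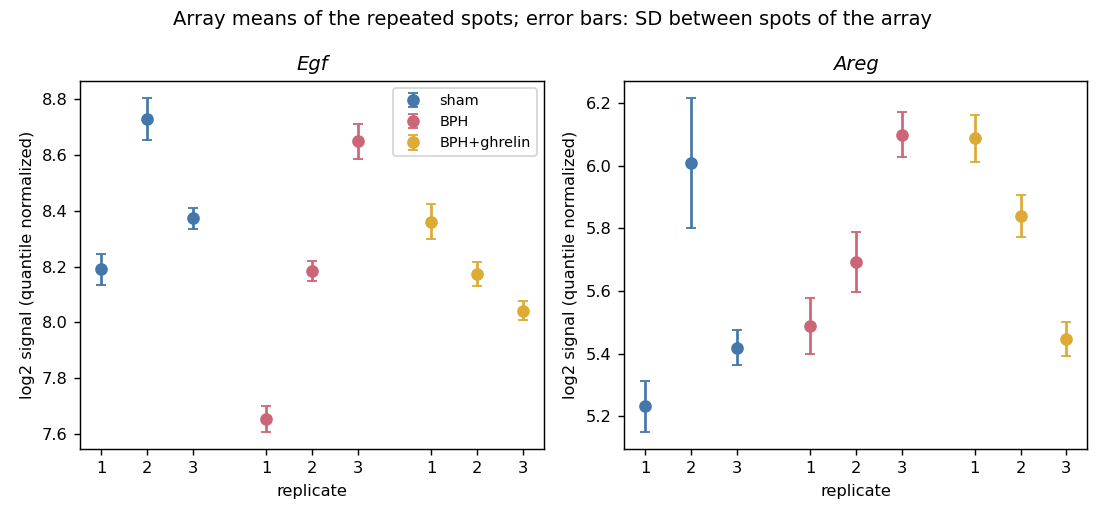
Mean log2 signal of the repeated spots of Egf and Areg on each array, with error bars for the SD between the spots of that array (9 to 10 spots after removal of outliers). Bars are short relative to the distance between arrays of 1 group, for example 7.65 to 8.65 for Egf in BPH.

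Areg (amphiregulin), a ligand of the EGF receptor whose promoter is shown above, had log2 signals of 5.23, 6.01 and 5.42 in sham, 5.49, 5.69 and 6.10 in BPH, and 6.09, 5.84 and 5.45 in BPH+ghrelin. Each group held at least 1 array near 6 and at least 1 near 5.4, and the groups overlapped. Group means were 5.55 ± 0.41, 5.76 ± 0.31 and 5.79 ± 0.32 (SD, n = 3 each) and differed by less than the spread between arrays. Differences were 0.21 (-0.40 to 0.81, adjusted p 0.634 in limma) for BPH against sham, 0.032 (-0.57 to 0.64, adjusted p 0.958) for BPH+ghrelin against BPH, and 0.24 (-0.36 to 0.84, adjusted p 0.632) for BPH+ghrelin against sham.

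Tgfa (TGF-alpha), another ligand of the EGF receptor, was at 9.78, 9.10 and 9.59 in sham, 9.69, 9.63 and 9.03 in BPH, and 9.63, 9.62 and 9.56 in BPH+ghrelin. In sham and BPH, 1 array each was lower than the other 2, and the BPH+ghrelin arrays lay close together (SD 0.037, compared to 0.35 in sham and 0.37 in BPH). The differences were -0.041 (-0.56 to 0.48), 0.15 (-0.37 to 0.67) and 0.11 (-0.41 to 0.63) in the same order, with adjusted p of 0.923, 0.730 and 0.813 in limma. A second probe of Tgfa had signals of 8.77, 8.71 and 8.58 in sham, 8.55, 8.62 and 8.72 in BPH, and 8.65, 8.99 and 9.32 in BPH+ghrelin, and did not show the low arrays of the first.

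The remaining ligands of the EGF receptor gave weak signals. Hbegf (HB-EGF), which also binds ErbB4, was at 3.23, 2.99 and 2.80 in sham, 3.30, 3.48 and 3.59 in BPH, and 3.57, 3.02 and 2.99 in BPH+ghrelin. Every BPH array was above every sham array, but the probe was above background on only 1 of 3 sham arrays, 3 of 3 BPH arrays and 1 of 3 BPH+ghrelin arrays. The difference of BPH to sham was 0.45 (standard error 0.19, interval 0.0034 to 0.89), with a p of 0.0486 before and 0.187 after adjustment in limma. That of BPH+ghrelin to BPH was -0.26 (-0.71 to 0.18, adjusted p 0.461). In both comparisons the probe was kept through the BPH arrays, where its mean was highest, so neither test can serve as support for a difference. With slide as a block, both differences changed sign, to -0.22 and 0.11, and with normexp background correction they were 0.049 and -0.050. That alternative starts from median spot signals and adds an offset of 50 to each, which by construction shrinks differences of dim probes, here and in the values given for other genes.

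Btc (betacellulin), which shares its receptors with HB-EGF, had log2 signals of 3.44, 2.62 and 3.63 in sham, 4.04, 4.11 and 3.55 in BPH, and 3.64, 3.54 and 2.76 in BPH+ghrelin. Sham replicate 2 and BPH+ghrelin replicate 3 were lowest and not well above background. BPH had the highest mean (3.90 ± 0.31, SD, n = 3), followed by BPH+ghrelin (3.31 ± 0.48) and sham (3.23 ± 0.54). It was 0.67 higher in BPH than in sham (-0.09 to 1.43, adjusted p 0.232 in limma), and the difference of BPH+ghrelin was -0.59 to BPH (-1.35 to 0.17, adjusted p 0.340) and 0.083 to sham (-0.67 to 0.84, adjusted p 0.910). The difference of BPH to sham was 0.37 without sham replicate 2 and 0.037 with normexp background correction, and that of BPH+ghrelin to BPH was -0.061 with normexp. Ereg (epiregulin) was well above background on 0 of 9 arrays and was not tested.

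Nrg1 (neuregulin 1), the member among the ligands that binds ErbB3, was at 3.44, 4.31 and 3.72 in sham, 3.67, 3.96 and 3.56 in BPH, and 3.96, 4.44 and 4.61 in BPH+ghrelin. BPH+ghrelin held the 2 highest arrays, while its lowest array was at the level of the highest BPH array. The difference of BPH+ghrelin to BPH was 0.61, i.e. 1.52-fold (standard error 0.26, interval 0.0095 to 1.20), with a p of 0.0472 before and 0.231 after adjustment (limma). To sham, that of BPH+ghrelin was 0.51 (-0.08 to 1.11, adjusted p 0.273) and that of BPH -0.093 (-0.69 to 0.50, adjusted p 0.839). Within the slide shared by both BPH groups, where BPH+ghrelin had 1 array, the difference of BPH+ghrelin to BPH was 0.23, and with normexp background correction over all arrays it was 0.097.

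**Figure D3:**
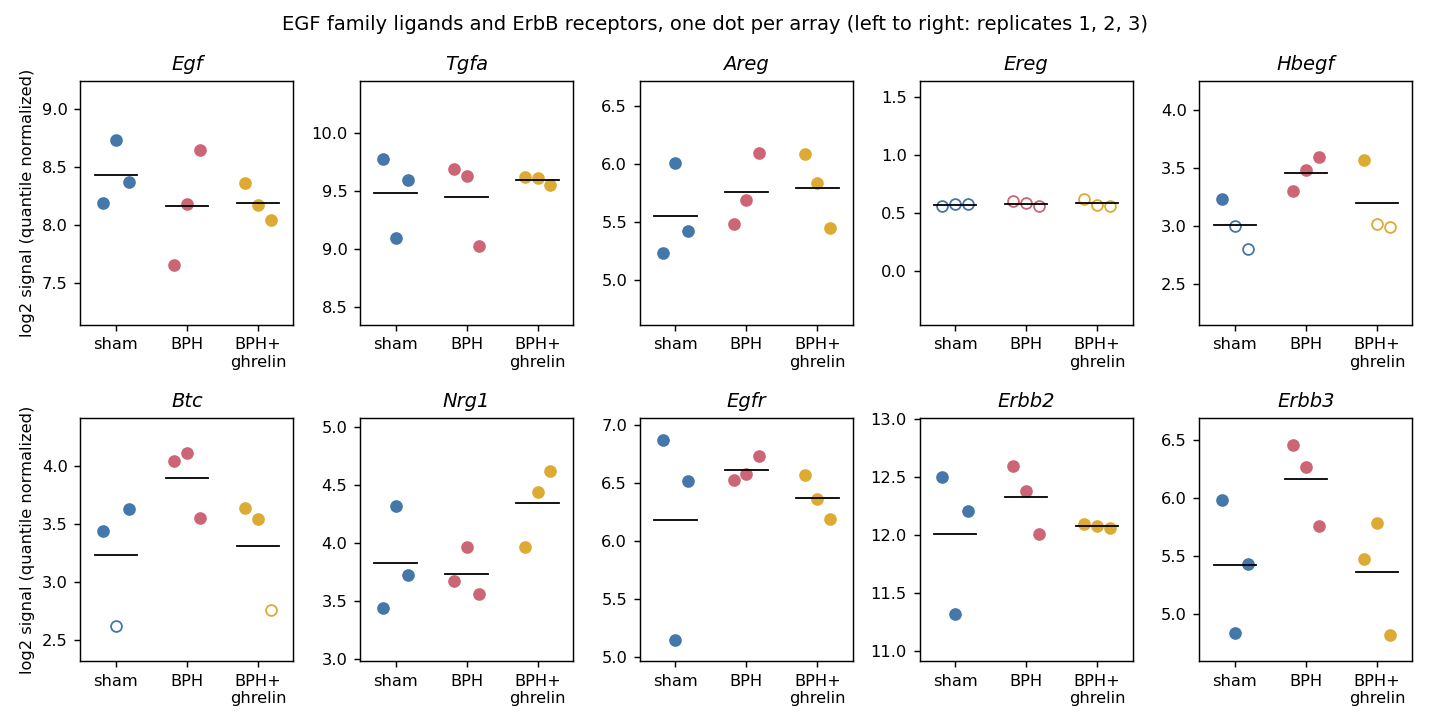
Log2 signal of the 10 members on each array (filled: probe well above background, open: not), with a bar for the mean of each group. Signals of Ereg are open on all 9 arrays, Hbegf in BPH is above Hbegf in sham, and the groups overlap in the other 8 members.

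The 3 receptors had in common that their mean was highest in BPH. Means in BPH were above those in sham by 0.32 to 0.74, and means in BPH+ghrelin were below those in BPH by 0.24 to 0.80, but none passed the test in limma, and arrays of both groups overlapped in each. For Egfr and Erbb2 the direction in BPH against sham depended on sham replicate 2, and for Erbb2 that in BPH+ghrelin against BPH depended on the scaling of the arrays, as given below. As the 2 comparisons share the BPH arrays, a high value of these arrays moves both.

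Egfr, the EGF receptor, had log2 signals of 6.87, 5.15 and 6.51 in sham, 6.52, 6.58 and 6.73 in BPH, and 6.56, 6.35 and 6.19 in BPH+ghrelin. The lowest and the highest of the 9 arrays were both in sham (6.18 ± 0.91, SD, n = 3), while BPH arrays lay close together (6.61 ± 0.11). BPH differed from sham by 0.43 (-0.46 to 1.33, adjusted p 0.490 in limma), BPH+ghrelin from BPH by -0.24 (-1.14 to 0.65, adjusted p 0.751) and BPH+ghrelin from sham by 0.19 (-0.70 to 1.08, adjusted p 0.809). Without sham replicate 2, the differences to sham became -0.082 and -0.32.

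Erbb2, the receptor without a ligand, was at 12.50, 11.32 and 12.20 in sham, 12.60, 12.38 and 12.01 in BPH, and 12.09, 12.08 and 12.06 in BPH+ghrelin. As with Egfr, sham replicate 2 was the lowest of all arrays, and the BPH+ghrelin arrays varied least (SD 0.016, compared to 0.61 in sham and 0.30 in BPH). A second probe showed the same order of arrays within sham and BPH, at 8.92, 8.02 and 8.80 in sham, 9.16, 8.98 and 8.56 in BPH, and 8.63, 8.60 and 8.62 in BPH+ghrelin. The third probe was above background on 5 of 9 arrays and on only 1 of 3 sham arrays, so that its difference of BPH to sham (1.06, over 2-fold, adjusted p 0.281 in limma) is set against signal that was mostly not well above background. The differences of the first probe were 0.32 (-0.35 to 0.99), -0.25 (-0.92 to 0.42) and 0.068 (-0.60 to 0.74) in the order above, with adjusted p of 0.497, 0.646 and 0.917 (limma). Without sham replicate 2, those to sham became -0.024 and -0.28, and with arrays scaled to their 75th percentile that of BPH+ghrelin to BPH was 0.016.

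On sham replicate 2, where Egfr, Erbb2 and Btc were lowest, summed markers of smooth muscle (6 of 6 above background on each sham array) were at 13.23, compared to 13.98 and 13.68 on the other sham arrays. Those of fibroblasts (6 of 6) were at 13.66, compared to 14.55 and 14.25, and those of luminal epithelium at 18.25, compared to 18.48 and 18.43. Adipocyte markers had their highest sham value on this array (12.18, compared to 6.59 and 10.67). Endothelial, nerve, striated muscle, proliferation and seminal vesicle markers were lowest in sham on this array by both sum and mean deviation from the 9-array mean. For basal, immune and luminal markers the order depended on the measure, as a sum follows the brightest markers: on this array, basal and immune markers had the highest sham sums (13.53 and 15.27) but the lowest mean deviations (-0.31 and -0.15), and the luminal mean deviation (0.31) lay between those of the other sham arrays (0.56 and 0.27). The part of tissue composition and of the low signal of this array in these values was not tested.

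Erbb3, the kinase-impaired receptor for neuregulins, had the widest range of group means among the 8 members tested in all comparisons (0.80). Its log2 signals were 5.99, 4.84 and 5.44 in sham, 6.46, 6.27 and 5.76 in BPH, and 5.48, 5.79 and 4.83 in BPH+ghrelin. The 2 highest arrays were from BPH, and the third BPH array was below 1 sham and 1 BPH+ghrelin array. BPH was 1.67-fold above sham (log2 difference 0.74, standard error 0.35, interval -0.06 to 1.55), with a p of 0.0668 before and 0.218 after adjustment in limma. BPH+ghrelin was 1.74-fold below BPH (-0.80, standard error 0.35, interval -1.61 to 0.0069), with a p of 0.0516 before and 0.240 after adjustment, and differed from sham by -0.058 (-0.86 to 0.75, adjusted p 0.940). Within the slide shared by both BPH groups, the difference of BPH+ghrelin to BPH was -0.68. Both of these differences kept their direction under each alternative tried, and the adjusted p did not fall below 0.0765 and 0.128, respectively. Their size varied: the difference of BPH to sham was 0.45 without sham replicate 2 and 0.29 with normexp background correction, and that of BPH+ghrelin to BPH was -0.36 with normexp and -0.53 without BPH+ghrelin replicate 3.

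Across the 9 arrays, Erbb3 and Btc had the highest Pearson r among the family genes (0.91, and 0.87 without sham replicate 2), but a Spearman rho of 0.65, and the Btc probe was not well above background on 2 arrays. By rank, Tgfa and Erbb2 were highest (rho 0.92, r 0.76), and Erbb2 and Erbb3 had an r of 0.79 (0.74 without it). Egfr and Erbb2 had an r of 0.85, which fell to 0.40 without sham replicate 2. The genes whose pattern was most like Erbb3 among 11090 genes included Gast (r 0.96), Cmahp (0.95), Calm2 (0.95) and Oasl2 (0.94). All these values are descriptions over 9 arrays that share groups, slides and depth.

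The other 5 genes of the family are the ligands Epgn, Nrg2, Nrg3 and Nrg4 and the receptor Erbb4. No probe matched Epgn or Nrg3, and the Erbb4 probe was above background on 0 of 9 arrays. Nrg4, a ligand of ErbB4, was at 3.75, 4.68 and 4.03 in sham, 4.49, 4.10 and 3.25 in BPH, and 3.63, 3.97 and 3.76 in BPH+ghrelin, with differences of -0.21, -0.16 and -0.37 and adjusted p of 0.712, 0.819 and 0.559 (limma).

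Nrg2 (neuregulin 2), a ligand of ErbB3 and ErbB4, was the one gene of the family that passed the test. Its log2 signals were 3.81, 3.73 and 3.41 in sham, 2.83, 2.94 and 3.09 in BPH, and 3.93, 3.74 and 3.68 in BPH+ghrelin. All BPH arrays were below all arrays of both other groups. It fell by 0.70 in BPH compared to sham (standard error 0.15, interval -1.04 to -0.36, adjusted p 0.0416 in limma), exceeded its BPH level 1.78-fold in BPH+ghrelin (0.83, standard error 0.15, interval 0.49 to 1.17, adjusted p 0.0419), and differed by 0.13 between BPH+ghrelin and sham (adjusted p 0.630). The signal was near background: sham replicate 2 was not well above it, and with normexp background correction the differences were -0.0093 and 0.084, with adjusted p of 0.929 and 0.402. The test was passed in 4 of 15 alternatives for the first and in 6 of 17 for the second difference. The first did not pass with slide as a block (-1.03, adjusted p 0.453 in limma) or with the replicate block (-0.70, adjusted p 0.0975). The second did not pass with the replicate block either. A second Nrg2 probe was above background on 1 of 9 arrays and cannot show a direction.

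**Figure D4:**
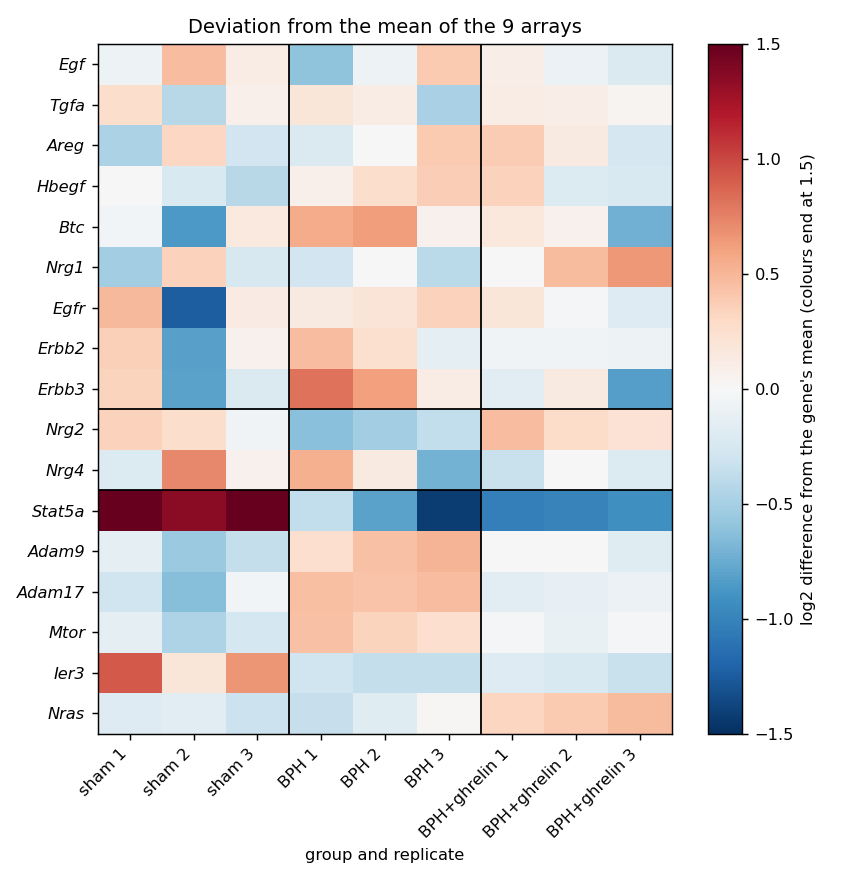
Log2 difference of each array from the gene's mean over the 9 arrays for 9 members, Nrg2 and Nrg4, and 6 genes of the pathway that passed the test in at least 1 comparison (red: above the mean, blue: below). Columns are arrays in the order sham, BPH and BPH+ghrelin. Stat5a separates sham from the other arrays, Nrg2 separates BPH, and members mostly vary within groups, such as Egfr on sham replicate 2 (5.15).

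The wider pathway was described with a list of 75 genes, of which 66 had a probe. It included proteases and carriers that process the ligands, adaptors and effectors, the RAS-MAPK and PI3K-AKT cascades, inhibitors, and genes that are induced through MAPK. In BPH against sham, 6 of 60 genes tested passed the adjusted test in limma, 4 higher (2.16% of all genes) and 2 lower (2.18% of all genes). After ghrelin, it was 1 of 62 in BPH+ghrelin against BPH, which was lower (0.987% of all genes), while 0 were higher (0.496%), and in BPH+ghrelin against sham 4 of 60, 2 higher (2.99%) and 2 lower (3.3%). The median log2 differences were 0.27, -0.11 and 0.19, compared to 0.04, 0.02 and 0.04 over all genes. These counts depended on single arrays: with 1 array left out at a time they were 1 to 13, 0 to 2 and 1 to 11. Stat5a passed in each of 6 such fits of either BPH group against sham, while Adam9, Adam17, Mtor and Ier3 passed in 3, 2, 2 and 2 of 6 such fits of BPH against sham, and Nras and Ier3 in 2 of 6 each of BPH+ghrelin against sham. No slide held both BPH and sham arrays. With slide as a block, the differences of BPH to sham were 0.66 for Adam9 (adjusted p 0.781), 0.98 for Adam17 (0.484), 0.60 for Mtor (0.778) and -0.97 for Ier3 (0.708), and those of BPH+ghrelin to sham 0.61 for Nras (0.254) and -0.83 for Ier3 (0.265). None of these passed in that fit, in which 2 of 19552 genes passed in BPH against sham and 85 of 19197 in BPH+ghrelin against sham.

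Ligand processing was covered by 7 genes, of which 2 rose in BPH compared to sham and 0 fell (limma), compared to 2.16% and 2.18% of all genes. Adam17, the protease that releases TGF-alpha, amphiregulin and HB-EGF, was at 6.23, 5.89 and 6.48 in sham, 6.98, 6.96 and 6.99 in BPH, and 6.36, 6.41 and 6.44 in BPH+ghrelin. All BPH arrays were above all others. It was 1.71-fold higher in BPH than in sham (log2 difference 0.77, standard error 0.16, adjusted p 0.0361), and the difference of BPH+ghrelin to BPH was -0.57 (adjusted p 0.103). Adam9, a related protease, was at 9.75, 9.33 and 9.54 in sham, 10.15, 10.33 and 10.40 in BPH, and 9.90, 9.90 and 9.71 in BPH+ghrelin, and was 1.69-fold higher in BPH than in sham (0.75, standard error 0.15, adjusted p 0.0326). Rhbdf1, which carries ADAM17 to the cell surface, differed by 0.79 in BPH (adjusted p 0.0643) and by 0.55 in BPH+ghrelin (adjusted p 0.143) from sham, and Rhbdf2 by 0.58 in the latter (adjusted p 0.0611). Rhbdl2, a rhomboid protease, differed by -1.37 between BPH and sham (adjusted p 0.0571), and Adam15 by -0.61 between BPH+ghrelin and BPH (adjusted p 0.253). The Rhbdl2 difference passed in 5 of 16 alternatives. It was -0.63 with normexp background correction and -2.46 with slide as a block (adjusted p 0.33 in limma).

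Of the adaptors and effectors, 1 of 12 genes fell in BPH and the same gene fell in BPH+ghrelin compared to sham, where 2.18% and 3.3% of all genes fell. This was Stat5a, a transcription factor downstream of ErbB, prolactin and cytokine receptors, whose GC-rich promoter is shown above. Its log2 signals were 13.49, 12.58 and 13.15 in sham, 10.86, 10.42 and 9.81 in BPH, and 10.20, 10.23 and 10.30 in BPH+ghrelin. Every sham array was above every other array, and the BPH groups overlapped. It was 6.56-fold lower in BPH (log2 difference -2.71, standard error 0.30, interval -3.40 to -2.03, adjusted p 0.00451 in limma) and 7.12-fold lower in BPH+ghrelin (-2.83, standard error 0.30, interval -3.52 to -2.14, adjusted p 0.00251) than in sham. BPH+ghrelin differed from BPH by -0.12 (-0.81 to 0.57, adjusted p 0.850). Stat5b, its close relative, was at 5.73, 4.33 and 5.32 in sham, 5.25, 5.22 and 5.29 in BPH, and 5.56, 5.09 and 5.03 in BPH+ghrelin, with differences to sham of 0.13 and 0.10 (adjusted p 0.825 and 0.890).

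With slide as a block, the differences of Stat5a to sham were -2.61 and -2.77, with adjusted p of 0.453 and 0.0704 in limma, and within the slide that held sham and BPH+ghrelin arrays the difference was -2.77. Markers of the seminal vesicle, which adjoins the prostate, did not move as 1 list. All 5 had a probe, and 3 had a lower and 2 a higher mean in BPH than in sham. Of the lower, 2 passed the test (limma), as did 2.18% of all genes. In BPH+ghrelin against sham, 3 were also lower and 2 higher, and 3 of the lower passed (3.3% of all genes). Semg1 had means of 16.48, 11.84 and 8.28 in sham, BPH and BPH+ghrelin, and Svs4 of 15.11, 10.84 and 10.31, while Svs6 and Svs5 had higher means in both BPH groups than in sham, by up to 1.27 (Svs6 in BPH). The summed level, which follows the brightest markers, was 16.46 to 17.27 in sham, 9.48 to 14.79 in BPH and 9.09 to 11.92 in BPH+ghrelin. None of these markers was below background on all arrays of a group. The part of this tissue in the level of Stat5a was not tested.

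Other adaptors did not pass the test. Between BPH+ghrelin and BPH, Plcg1 (phospholipase C gamma) differed by -0.57 (adjusted p 0.218 in limma) and Stat3 by -0.40 (adjusted p 0.458). Both were named because their arrays did not overlap, which was the case in 39.2% of all genes in this comparison. Cblb, a ubiquitin ligase, differed by 0.46 between BPH+ghrelin and sham (adjusted p 0.0667).

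In the RAS-MAPK and PI3K-AKT cascades, 17 of 19 genes had a higher mean in BPH than in sham, of which 2 passed the test (limma, 2.16% of all genes) and the others did not. Mtor, 1 of these 2, the kinase that couples growth factors to protein synthesis, was at 7.31, 6.99 and 7.18 in sham and 7.89, 7.79 and 7.70 in BPH (0.63, standard error 0.13, adjusted p 0.0348), and at 7.42, 7.33 and 7.42 in BPH+ghrelin. Pik3cb, a catalytic subunit of PI3-kinase, differed by 0.89 between BPH and sham (adjusted p 0.0763).

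With ghrelin, 16 of these 19 genes had a lower mean than in BPH alone. Pdpk1, which activates AKT, differed by -0.60 (adjusted p 0.0796). Nras, a RAS protein, was at 9.36, 9.40 and 9.24 in sham, 9.21, 9.37 and 9.58 in BPH, and 9.88, 9.94 and 10.03 in BPH+ghrelin, and exceeded its sham level 1.54-fold in BPH+ghrelin (0.62, standard error 0.13, adjusted p 0.0327). Pik3r1, a regulatory subunit of PI3-kinase, differed by -1.90 between BPH+ghrelin and sham (adjusted p 0.0934 in limma). Over 17 alternatives this difference ranged from -2.46 to -0.71. It passed in 1 of them, the fit without sham replicate 2 (-2.46, adjusted p 0.0292).

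Means of markers of other cell types also differed in these comparisons, and counts of calls below stand beside 2.16% higher and 2.18% lower among all genes in BPH against sham, 0.496% and 0.987% in BPH+ghrelin against BPH, and 2.99% and 3.3% in BPH+ghrelin against sham. In BPH against sham, 5 of 6 basal epithelial markers had a higher mean (2 called in limma, median log2 difference 0.53), as had 6 of 6 fibroblast markers (0 called, 0.36) and 3 of 3 measured proliferation markers (0 called, 0.57), while 3 of 4 striated muscle markers had a lower mean (2 called, -0.78) and Tp63, a basal marker, was at 11.06 in sham and 10.33 in BPH. With ghrelin, compared to BPH, 6 of 6 smooth muscle markers (1 called, median -0.52), 4 of 4 immune markers (2 called, -0.61), 5 of 6 fibroblast markers (1 called, -0.21), 4 of 5 endothelial markers (0 called, -0.31), 4 of 4 striated muscle markers (0 called, -0.21) and 4 of 6 basal markers (0 called, -0.14) had a lower mean, and 3 of 3 proliferation markers a higher one (0 called, 1.33). Summed adipocyte markers were low on BPH+ghrelin replicate 1 (5.75, compared to 11.02 and 12.07 on replicates 2 and 3) and on sham replicate 1 (6.59, compared to 12.18 and 10.67), and were 10.27 to 11.69 in BPH. Of these markers, 3 of 3 had a higher mean in BPH than in sham (0 called, median 2.05) and a lower one in BPH+ghrelin than in BPH (0 called, -1.19). In BPH+ghrelin against sham, 3 of 3 proliferation markers (1 called, median 1.99) had a higher mean, and 6 of 6 smooth muscle markers (1 called, -0.39), 3 of 4 immune markers (2 called, -0.42), 3 of 4 striated muscle markers (2 called, -1.11) and 4 of 4 endothelial markers (1 called, -0.63) a lower one. The part of cell composition in the values of Adam9, Adam17, Mtor, Nras and the 19 genes of these cascades was not tested.

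Of 11 inhibitors and feedback regulators tested, 0 passed the adjusted test in each comparison (limma), while 2, 1 and 2 had an unadjusted p under 0.05 in BPH against sham, BPH+ghrelin against BPH and BPH+ghrelin against sham, where 26.5%, 21.1% and 23.7% of all genes had. Among those whose arrays were fully apart, the largest differences were those of Dusp6, a phosphatase of ERK (-0.67, adjusted p 0.0941), and Rnf41, which degrades ErbB3 (0.49, adjusted p 0.200), in BPH against sham. For BPH+ghrelin and BPH they were those of Spry2 (-1.02, adjusted p 0.342), an inhibitor of RAS signaling, and Dusp4 (0.49, adjusted p 0.495), and in BPH+ghrelin against sham Spred1 (0.74, adjusted p 0.154) and Socs5 (0.47, adjusted p 0.0978). With 1 array left out at a time, Dusp6 ranged from -0.87 to -0.43. It passed in 1 of 16 alternatives, the fit without sham replicate 1 (adjusted p 0.0262 in limma). Spry2 ranged from -1.32 to -0.66, Dusp4 from 0.30 to 0.64 and Spred1 from 0.43 to 0.95. With slide as a block, Rnf41 was -0.13.

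Among 11 genes induced through MAPK that were tested against sham, Ier3 was the 1 gene that fell in both BPH groups, where 2.18% (BPH) and 3.3% (BPH+ghrelin) of all genes fell. This early response gene, which protects cells from apoptosis, was at 9.29, 8.55 and 9.03 in sham, 8.07, 8.01 and 8.01 in BPH, and 8.17, 8.14 and 8.04 in BPH+ghrelin. The differences to sham were -0.92 (standard error 0.18, adjusted p 0.0348 in limma) and -0.84 (standard error 0.18, adjusted p 0.0361). Fos, a component of the AP-1 transcription factor, was at 10.97, 7.95 and 10.37 in sham, 7.31, 7.23 and 7.42 in BPH, and 7.35, 7.62 and 7.87 in BPH+ghrelin. All sham arrays were above all others, but sham replicate 2 was close to them, and the differences of -2.45 and -2.15 had adjusted p of 0.0742 and 0.0951. Without sham replicate 2, they were -3.35 and -3.05, with adjusted p of 0.00115 and 0.000776 in limma. The Fos differences passed in no other alternative (1 of 16 and 1 of 17). Between both BPH groups, Ptgs2 (cyclooxygenase) differed by 1.25 (adjusted p 0.125 in limma) and Jun by -0.39 (adjusted p 0.534). Their arrays did not overlap, as in 39.2% of all genes in this comparison. Plaur, the urokinase receptor, was above background on 0 of 3 sham arrays, and was at 4.69, 3.33 and 3.34 in BPH+ghrelin. The mean of these was at least 1.61-fold above sham. This bound rests mainly on replicate 1, and a second probe allowed no bound. No p-value is given for Plaur, as the probe was kept only through the BPH+ghrelin arrays.

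**Figure D5:**
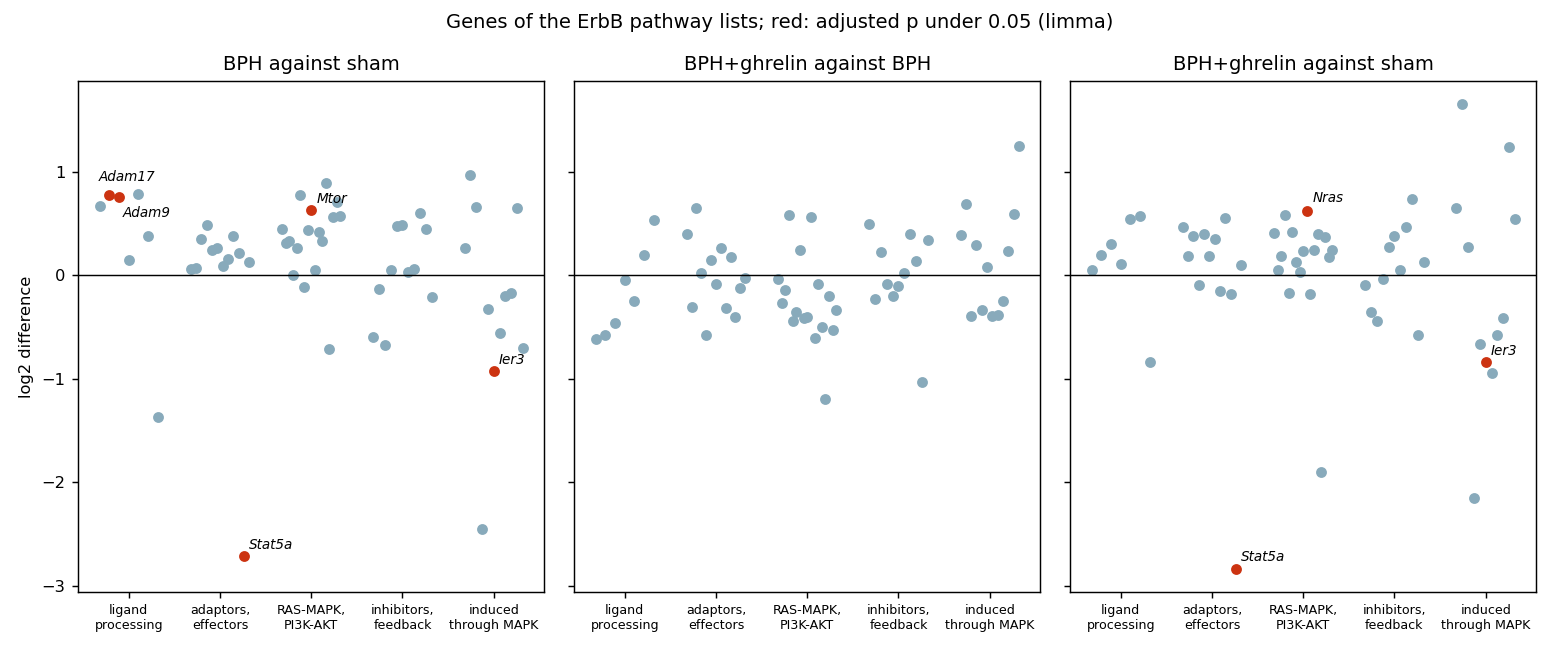
Log2 differences of the pathway genes shown, by list and comparison, with 1 point per gene and red points for an adjusted p under 0.05 in limma. Most points of ligand processing and of RAS-MAPK and PI3K-AKT are above 0 in BPH against sham and below 0 in BPH+ghrelin against BPH, which share the BPH arrays, and Stat5a is far below the other adaptors against sham (-2.71 and -2.83).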

How the data were processed

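Whole-prostate RNA of 9 samples was hybridised to one-colour Agilent rat arrays. The authors deposited scanner files (Feature Extraction 11.0.1.1) whose processed signal intensity is background-subtracted and linear, with flags per spot, and a matrix of log2 values that the authors quantile-normalized with a floor, used here only as an alternative. Control and outlier spots were left out, 0 spots were saturated, spots of a probe were averaged, and intensities were converted to log2 and quantile-normalized over 9 arrays. A probe counted as well above background on an array when at least 0.5 of its spots carried that flag. In each comparison, probes above background on at least 3 of 6 arrays were kept, and a gene was represented by its brightest kept probe. Accessions of 17998 probes matched symbols in RefSeq (GRCr8), which was used for names and promoters. All 9 arrays were fitted with 3 groups in limma 3.58.1 (R 4.3.3, lmFit and eBayes), with Benjamini-Hochberg adjustment over all genes tested and a threshold of 0.05. The number of arrays limits the precision. Bounds ("at least") compare the mean of the brighter group with the lowest signal above background on the dim arrays. Slides were inferred from the scan time in the file headers, so that a slide here means arrays that share a scan time. The members and gene lists were chosen with earlier results of these data known. Of the lists, genes that passed the test were named, and up to 2 genes per list and comparison with the largest difference among those without overlap. A few genes covered by this rule are not reported here, although counts over the lists include them. Scripts were tested on simulated data. Alternatives covered scaling, background correction, filters, the choice of probe, the fit, replicate and slide blocks, and leaving out each array.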

Additional observations from a re-analysis of the deposited data

How the results depend on the processing

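The count of members that passed the test was 0 under each alternative run. Of 439 alternative values of 26 member results, 406 kept their direction and 33 changed it, and 0 passed the threshold. The cause of the changes was not tested. With slide as a block, BPH against sham was -0.31 for Areg, -0.22 for Hbegf, 0.42 for Nrg1 and -0.13 for Rnf41, BPH+ghrelin against BPH was 0.11 for Hbegf (also 0.11 on slide 1 alone), and BPH+ghrelin against sham was -0.057 for Nrg2 (also on slide 2 alone). Scaling to the 75th percentile moved the median of all genes in BPH against sham from 0.04 to -0.09, and gave -0.013 for Egf, -0.030 for Areg and 0.016 for Erbb2 in BPH+ghrelin against BPH, and -0.053 for Btc and -0.020 for Nrg2 in BPH+ghrelin against sham. Normexp correction gave -0.024 for Btc in the latter. For Egf, the second probe gave 0.0565 in BPH against sham and -0.13 in BPH+ghrelin against BPH, and the mean of both probes -0.049 in the latter.

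With 1 array left out at a time, differences of BPH to sham ranged from -0.24 to 0.17 for Tgfa, -0.29 to 0.15 for Nrg1, -0.082 to 0.78 for Egfr, -0.024 to 0.57 for Erbb2 and -0.48 to 0.14 for Nrg4. Those of BPH+ghrelin to BPH ranged from -0.22 to 0.27 for Egf, -0.061 to 0.27 for Tgfa, -0.12 to 0.20 for Areg and -0.51 to 0.11 for Nrg4, and those of BPH+ghrelin to sham from -0.085 to 0.25 for Tgfa, -0.22 to 0.36 for Btc, -0.32 to 0.54 for Egfr, -0.28 to 0.31 for Erbb2 and -0.35 to 0.22 for Erbb3. The number of members at least 2-fold apart was 0 to 1 in BPH against sham (Erbb3, 1.02 without sham replicate 1) and 0 to 1 in BPH+ghrelin against BPH (Erbb3, without BPH replicate 3, and -1.01 without BPH+ghrelin replicate 2).

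Pathway genes that passed in BPH against sham numbered 6, and 3 without a filter on dim probes, 2 with only the 6 arrays compared, 2 with the replicate block, 0 with slide as a block, and 1 to 13 with 1 array left out (13 without sham replicate 1, 1 without BPH replicate 2 or sham replicate 3, 2 without BPH replicate 3, 3 without BPH replicate 1). Between both BPH groups there was 1, and 6 with the 6 arrays compared, 0 with a trended and robust fit, 0 with the replicate block, 0 with slide as a block, 0 on slide 1 alone, and 0 to 2 with 1 array left out (2 without BPH replicate 3 and 0 without each of the others). Between BPH+ghrelin and sham there were 4, and 1 without the filter, 2 with the 6 arrays compared, 1 with the replicate block, 0 with slide as a block, 0 on slide 2 alone, and 1 to 11 with 1 array left out (11 without sham replicate 2, 1 without sham replicate 3 or any BPH+ghrelin array).

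Over all genes, 849, 293 and 1207 passed in the 3 comparisons, with ranges of 2 to 3069, 1 to 2110 and 4 to 1927 over the alternatives. The replicate numbers did not pair the arrays (correlations of deviations of -0.14 to 0.26 between arrays of the same number), and with them as a block Adam9, Adam17, Mtor, Nras and Ier3 kept their differences but did not pass (adjusted p 0.0695 to 0.0879), nor did Nrg2 (0.0975 in BPH against sham and 0.101 in BPH+ghrelin against BPH), and 242, 20 and 462 genes passed. BPH and sham could not be compared within a slide, as no slide held both. With 3 arrays per group, intervals of members are wide, and Hbegf, Btc, Nrg1, Nrg2 and Nrg4 lie near background.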
